A study of Mus musculus with 3 samples.

Results

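The genes described here are 41 genes of ribosome biogenesis and the nucleolus, taken from a list of names compiled by function with earlier results of these data known. All 41 were found among the 20586 genes of the deposited count table. The cells were CD45-positive cells sorted from mouse thalamus 4 h after intracerebroventricular injection and profiled with droplet libraries of 3' tags in which unique molecular identifiers (UMIs) count molecules. There were 3 libraries, 1 per group. WT IL-33 came from mice heterozygous for Cx3cr1-creER and injected with IL-33, an IL-1-type cytokine released by damaged or stimulated tissue cells. For cKO IL-33, the Cx3cr1-creER heterozygotes were in addition homozygous for ST2 flox, with the same injection of IL-33. For WT vehicle, heterozygotes without the floxed alleles were given vehicle. The recombinase was thus present in all 3 groups, and its driver, Cx3cr1, is a receptor gene active in microglia and other macrophages. No vehicle library with the floxed ST2 alleles was analysed here, and the sources used here give neither the age of the mice, nor the number of animals per library, nor any tamoxifen dosing.

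Ribosomes are assembled in the nucleolus. RNA polymerase I transcribes a long precursor of ribosomal RNA (rRNA), small nucleolar ribonucleoproteins (snoRNPs) guide the modification of its nucleotides, and separate sets of assembly factors process it and fold it with ribosomal proteins into the small (40S) and large (60S) subunits. In many cell types Myc, a transcription factor that binds the E-box CACGTG with its partner Max, promotes the expression of genes at most of these steps. Microglia are the resident macrophages of the brain, and in the healthy brain most of them are not dividing.

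WT IL-33 had 2202 cells and 12127214 UMIs, cKO IL-33 2687 cells and 17480958 UMIs, and WT vehicle 2709 cells and 18269042 UMIs. WT IL-33 cells were the shallowest, at a median of 3951 UMIs per cell against 5119 and 5544. The deposited sex call was female for 1107 and male for 1095 cells of WT IL-33, female for all but 39 cells of cKO IL-33 and male for all but 8 cells of WT vehicle, so that sex and group cannot be told apart between the last pair. The microglial markers Tmem119 (1031 UMIs per 1000000 of the library, CPM, in WT IL-33, with 1579 for cKO IL-33 and 1327 for WT vehicle), Cx3cr1 (3118, 2822 and 2593 CPM) and P2ry12 (916, 3527 and 3602 CPM) were present in every library. Markers of neutrophils, T cells and mast cells were at or near 0 in every library. The 5 border macrophage markers summed to 11.05 CPM in WT IL-33, with Lyve1 at 0, against 85.9 (cKO IL-33) and 75.4 (WT vehicle), and the 3 dendritic cell markers summed to 278 CPM in WT IL-33, of which Ccr7 made 273 CPM, against 2.12 and 1.81 CPM. The 3 monocyte markers summed to 7.34, 31.8 and 56.4 CPM in the same order of libraries, with Ly6c2 at 0 in each, and the 3 B cell markers to 133, 57.2 and 55.01 CPM, nearly all from Cd79b, with Cd79a at 0 in WT IL-33. The 3 astrocyte markers summed to 238, 269 and 139 CPM, nearly all from Slc1a3. The part of these differences in the results below was not tested. Il1rl1, which encodes ST2, was at 5.77 CPM in WT IL-33, against 12.8 (cKO IL-33) and 11.6 (WT vehicle). Because the sources used here do not say which exons are floxed, and 3' tags may fall beyond them, these levels are no check of genotype.

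The ribosome assembly genes were higher in WT IL-33 than in WT vehicle in each role group, from rRNA transcription to late subunit maturation, and in cKO IL-33 they were close to WT vehicle. Together the 41 genes made up 0.513% of all UMIs in WT IL-33 (62189 UMIs), against 0.220% for cKO IL-33 (38378 UMIs) and 0.223% for WT vehicle (40717 UMIs). Their sum was 2.30-fold higher in WT IL-33 than in WT vehicle (95% interval 2.27 to 2.33). Of the 40 members with a mean of at least 10 CPM over the 3 libraries, 36 exceeded WT vehicle by at least 1.5-fold in WT IL-33 and 0 were at least 1.5-fold lower. Calls use the ratio of CPM with nothing added. They were made for 21.8% (higher) and 19.1% (lower) of the 8385 genes at that level. The median log2 ratio, computed after adding 1 CPM, was 1.48 for the members (range 0.27 to 2.45) and 0.04 for all those genes. The mean includes WT IL-33. Polr1b, Bysl and Bop1, among the 36, were below 10 CPM in cKO IL-33 and WT vehicle. They met the minimum only through WT IL-33, so their calls are not independent of it. Rrp12, whose mean was below 10 CPM, is given by its values only. With 1 library per group there is no replicate check and no test. Each interval is exact, at 95%, and covers counting error only. CPM are shares of a library's UMIs, so CPM alone cannot tell apart fewer expressing cells and less RNA per cell. Values in single cells are given below for the sum of the members and for Myc.

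**Figure D1:**
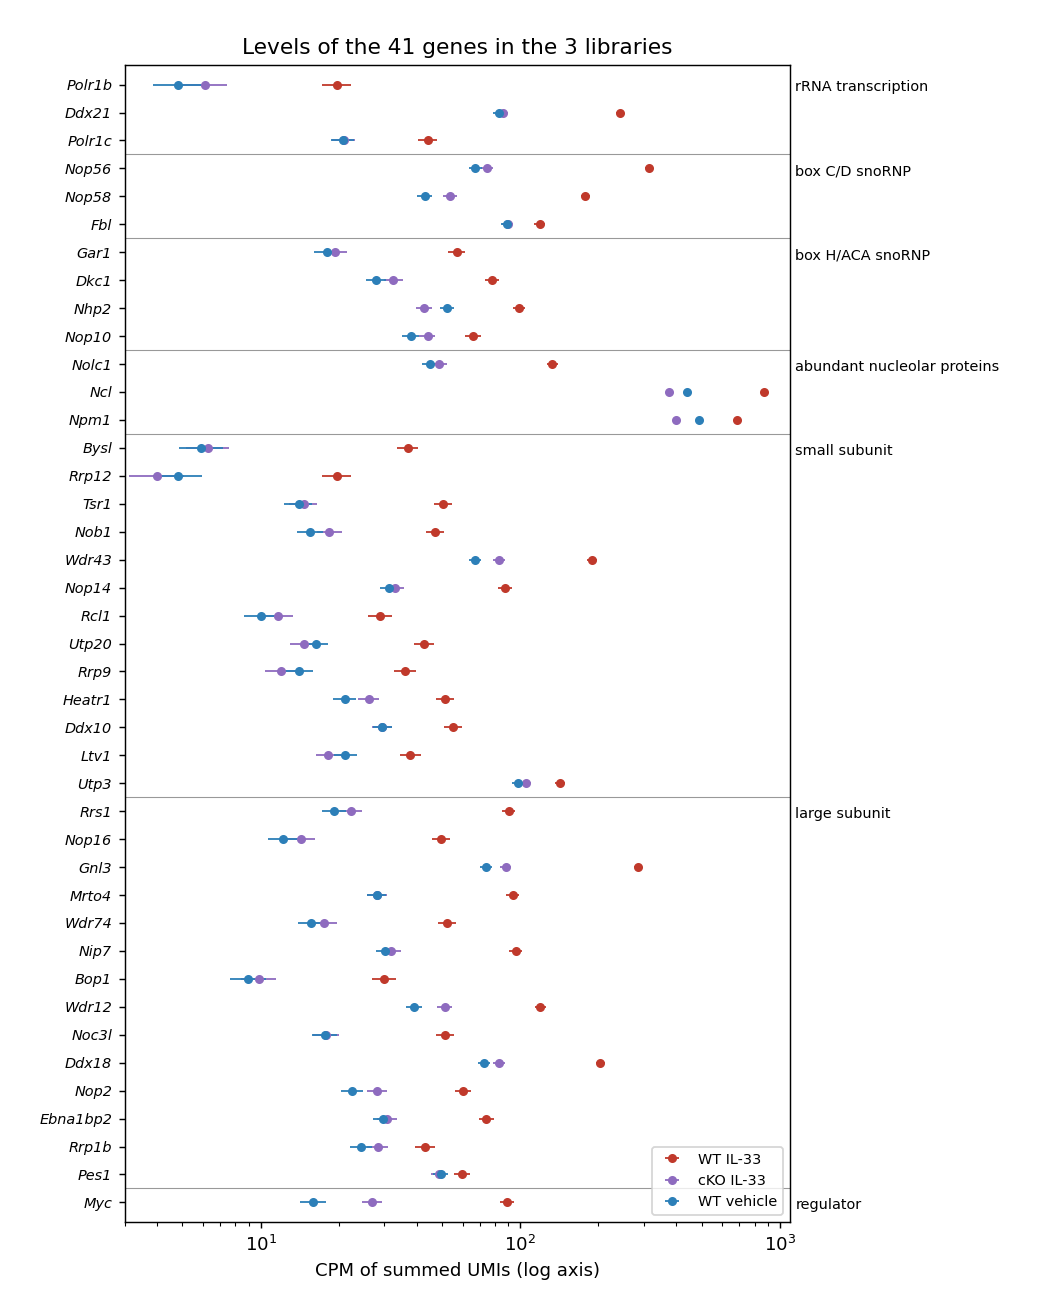
CPM of summed UMIs of each of the 41 genes on a log axis, grouped by role and ordered within a role by the log2 ratio of WT IL-33 to WT vehicle, with exact Poisson 95% intervals as bars. Each WT IL-33 point lies to the right of the other points of its gene, and for most genes the cKO IL-33 and WT vehicle points are close to each other.

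Transcription of rRNA was represented by 3 genes, all past 1.5-fold. Polr1b (chr2:129100995-129126594, plus strand, GRCm38), a catalytic subunit of RNA polymerase I, was at 19.7 CPM in WT IL-33, against 6.12 (cKO IL-33) and 4.82 (WT vehicle). Its ratio of WT IL-33 to WT vehicle was 4.09 (3.19 to 5.29). Polr1c, a subunit shared by RNA polymerases I and III, was at 44.03, 20.9 and 20.8 CPM in the same order, a 2.12-fold difference (1.85 to 2.42). Ddx21 (chr10:62580251-62602281, minus strand), a nucleolar RNA helicase that acts in rRNA transcription and modification, was at 242, 85.8 and 82.9 CPM, and its ratio was 2.92 (2.75 to 3.11). In all 3 genes WT IL-33 stood apart, and the intervals of the other libraries overlapped.

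The ratios of the snoRNP core proteins differed in size within a particle. In the box C/D snoRNP, which methylates rRNA, the scaffold proteins Nop56 and Nop58 were among the members with the largest ratios. Nop56 (chr2:130274430-130279313, plus strand) was at 314 CPM in WT IL-33, against 74.5 (cKO IL-33) and 67.3 (WT vehicle), a 4.66-fold difference between WT IL-33 and WT vehicle (4.37 to 4.98). Nop58 (chr1:59684971-59719044, plus strand) was at 179, 53.8 and 42.9 CPM, and its ratio was 4.17 (3.84 to 4.53). Fbl, the methyltransferase of the same particle, was at 119, 89.5 and 88.8 CPM, and its ratio of 1.34 (1.25 to 1.44) was below 1.5-fold. The interval of Fbl lay below those of both scaffold genes.

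The box H/ACA snoRNP converts uridines of rRNA to pseudouridine, and its 4 protein genes were all past 1.5-fold. Gar1 was at 56.98 CPM in WT IL-33, against 19.4 (cKO IL-33) and 18.01 (WT vehicle), 3.16-fold higher in WT IL-33 than in WT vehicle (2.77 to 3.62). Dkc1, the pseudouridine synthase, was at 78.01, 32.5 and 27.9 CPM, a ratio of 2.80 (2.51 to 3.12). The RNA-binding protein Nhp2 was at 99.03, 42.8 and 52.3 CPM, a ratio of 1.89 (1.74 to 2.06). Nop10, the smallest protein of the particle, was at 65.9, 43.99 and 37.9 CPM, a ratio of 1.74 (1.57 to 1.93). The intervals of Gar1 and Dkc1 lay above those of Nhp2 and Nop10.

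Ncl and Npm1 encode nucleolin and nucleophosmin, abundant proteins of the nucleolus that bind rRNA and its precursors. They held 17.01% and 13.3% of the members' UMIs in WT IL-33 and 19.8% and 22.02% in WT vehicle. Ncl (chr1:86344719-86359400, minus strand) was at 873 CPM in WT IL-33, against 374 (cKO IL-33) and 441 (WT vehicle), 1.98-fold higher in WT IL-33 than in WT vehicle (1.92 to 2.04). Npm1 was at 682, 399 and 491 CPM, and its ratio of 1.39 (1.35 to 1.43) was below 1.5-fold. Processed pseudogenes of Npm1 resemble its transcript, so its counts are uncertain where reads could match both. Nolc1, a chaperone that shuttles snoRNPs, was at 133, 48.8 and 44.9 CPM, a ratio of 2.97 (2.73 to 3.23). Without Ncl and Npm1 the members' sum was 2.76-fold higher in WT IL-33 than in WT vehicle (2.71 to 2.799).

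Among the 13 small-subunit genes, 11 of the 12 with a mean of at least 10 CPM were past 1.5-fold, and the median log2 ratio of the 12 was 1.39. Bysl (bystin, chr17:47599331-47611492, minus strand), needed for late steps of 40S maturation, had the largest ratio of the 41 genes. It was at 36.9 CPM in WT IL-33 (447 UMIs), against 6.29 (110 UMIs) for cKO IL-33 and 5.91 for WT vehicle (108 UMIs), a ratio of 6.23 (5.04 to 7.77). Rrp12, which acts in the export and processing of pre-ribosomes, was at 19.6, 4.004 and 4.82 CPM, a ratio of 4.07 (3.18 to 5.26). Tsr1, a factor that binds 40S precursors in the cytoplasm, was at 50.5, 14.6 and 14.01 CPM, a ratio of 3.60 (3.11 to 4.18). Nob1, the nuclease that makes the last cut of the small-subunit rRNA, was at 47.1, 18.4 and 15.5 CPM, a ratio of 3.03 (2.62 to 3.504). Wdr43 (chr17:71615895-71659031, plus strand), a component of the small-subunit processome on the nascent precursor, was at 189, 82.9 and 67.1 CPM, a ratio of 2.82 (2.63 to 3.03). Early and late factors were thus both among the genes with large ratios. The other 8 genes, Nop14, Rcl1, Utp20, Rrp9, Heatr1, Ddx10, Ltv1 and Utp3, had ratios from 1.45 to 2.88. Utp3 was the 1 gene below 1.5-fold, at 142, 105 and 97.9 CPM.

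Of the 14 large-subunit genes, 13 were past 1.5-fold, with a median log2 ratio of 1.61. Rrs1 (chr1:9545408-9547455, plus strand), which helps bring the 5S particle into the 60S precursor, was at 90.3 CPM in WT IL-33, against 22.4 (cKO IL-33) and 19.3 (WT vehicle), a ratio of 4.69 (4.15 to 5.30). Nop16, another 60S assembly factor, was at 49.6, 14.4 and 12.2 CPM, a ratio of 4.07 (3.48 to 4.76). Gnl3 (nucleostemin, chr14:31012433-31019152, minus strand), a GTP-binding protein of the nucleolus, was at 284, 88.1 and 74.005 CPM, a ratio of 3.84 (3.60 to 4.09). Mrto4, which occupies the site of the ribosomal stalk during assembly, was at 93.8, 28.1 and 28.03 CPM, a ratio of 3.35 (3.01 to 3.72). Wdr74 was at 52.4, 17.6 and 15.7 CPM, a ratio of 3.33 (2.90 to 3.85). In these 5 genes the WT IL-33 library was apart from the others. The remaining genes, Nip7, Bop1, Wdr12, Noc3l, Ddx18, Nop2, Ebna1bp2, Rrp1b and Pes1, had ratios from 1.21 to 3.33.

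Pes1, Bop1 and Wdr12 encode the subunits of the PeBoW complex, which processes the large-subunit rRNA precursor. This complex was singled out after its values were seen, because its members differed from one another. Bop1 was at 29.9 CPM in WT IL-33, against 9.84 (cKO IL-33) and 8.98 (WT vehicle), and its ratio was 3.33 (2.77 to 4.03). Wdr12 was at 120, 51.2 and 39.03 CPM, a ratio of 3.07 (2.81 to 3.36). Pes1 was at 59.8, 48.6 and 49.5 CPM, and its ratio of 1.21 (1.09 to 1.33) was the smallest of the 41 genes. Like Fbl in the box C/D snoRNP, Pes1 had a smaller ratio than its partners, and its interval did not overlap theirs.

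Myc (chr15:61985391-61990374, plus strand) was at 89.1 CPM in WT IL-33 (1081 UMIs), against 26.9 (470 UMIs) for cKO IL-33 and 15.98 for WT vehicle (292 UMIs). Its ratio of WT IL-33 to WT vehicle was 5.58 (4.90 to 6.37), the largest after Bysl, and the 2 intervals overlapped. In cells thinned to 3000 UMIs, 22.1% of those of WT IL-33 held a Myc UMI (20.2 to 24.03%), against 7.19% (6.23 to 8.25%) for cKO IL-33 and 4.56% for WT vehicle (3.79 to 5.43%). The unthinned shares were 32.6%, 14.6% and 9.04%. No other cell type was numerous enough here to give a droplet background for these shares. The other 40 genes had a mean of 54.6 UMIs per 10000 in thinned WT IL-33 cells with a Myc UMI and 50.9 in those without one. The corresponding means were 21.8 and 21.6 for cKO IL-33, and 24.3 and 21.99 for WT vehicle. A thinned cell without a Myc UMI can still hold Myc transcripts.

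The promoters of the members are shown because their genes were higher together and because Myc was among them. RefSeq promoter windows of GRCm38.p6, from 250 bases before to 50 bases after a gene's start, were matched for 35 members (38 windows). Bop1, Fbl, Myc, Npm1, Rrp12 and Rrs1 had no entry. CACGTG, which reads the same on both strands, was in 6 of 38 windows (15.8%), against 2349 of 32851 windows of all genes (7.15%). The sites are printed 5′ to 3′ on the gene's strand, with CACGTG in capitals and its first base located relative to the RefSeq start, which can differ from the GENCODE start of the gene positions given above, as it does for Wdr43.
Nop2, chr6:125131811-125131840, plus strand, 60 bases upstream: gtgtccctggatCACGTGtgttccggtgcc
Pes1, chr11:3963965-3963994, plus strand, 2 bases downstream: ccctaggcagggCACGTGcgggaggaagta
Wdr43, chr17:71616220-71616249, plus strand, 17 bases downstream: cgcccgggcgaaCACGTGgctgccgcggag
Tsr1, chr11:74898092-74898121, plus strand, 24 bases downstream: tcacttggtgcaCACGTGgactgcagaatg
Ltv1, chr10:13193092-13193121, minus strand, 28 bases downstream: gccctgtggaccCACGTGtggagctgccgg
Utp20, chr10:88826765-88826789, minus strand, 37 bases downstream: cggcactaactaCACGTGaggaaaa
Of these genes, Tsr1 had one of the larger ratios of WT IL-33 to WT vehicle (3.60) and Pes1 the smallest of all members (1.21). A match is only a description of the letters in the window.

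The related hexamer CACGCG, or CGCGTG on the opposite strand, was looked for after the sequences had been seen. It was in 10 of 38 member windows (26.3%) and in 3045 of 32851 windows of all genes (9.27%). Both motifs contain CG pairs, and the bases upstream of the start had a median GC content of 58.2% in the members and 52.4% in all genes. The part of base composition in these shares was not tested. The 250 bases before the start of Bysl and Nop56, the member with the largest ratio and the snoRNP gene with the largest ratio, are printed on the gene's strand with CACGCG in capitals. The Bysl stretch has the motif and no CACGTG, and that of Nop56 has neither on either strand.
Bysl, chr17:47611493-47611742, minus strand: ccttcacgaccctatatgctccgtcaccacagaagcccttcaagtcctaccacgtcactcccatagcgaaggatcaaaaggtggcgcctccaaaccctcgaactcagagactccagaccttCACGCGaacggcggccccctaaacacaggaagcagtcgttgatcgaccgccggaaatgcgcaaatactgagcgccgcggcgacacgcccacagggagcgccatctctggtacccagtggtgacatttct
Nop56, chr2:130274162-130274411, plus strand: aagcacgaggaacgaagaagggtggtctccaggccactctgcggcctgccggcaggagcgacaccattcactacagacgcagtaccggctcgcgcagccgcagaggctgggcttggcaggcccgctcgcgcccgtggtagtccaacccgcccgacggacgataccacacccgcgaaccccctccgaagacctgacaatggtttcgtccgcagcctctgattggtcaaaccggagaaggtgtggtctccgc

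The cKO library with the same injection addresses the response when the ST2 alleles are floxed, and the members were lower in cKO IL-33. Of 40 members, 36 were at least 1.5-fold lower in cKO IL-33 and 0 were at least 1.5-fold higher, where 18% and 20.7% of the 8385 genes were. Polr1b, Bysl and Bop1, among the 36, met the expression minimum only through WT IL-33. The median log2 ratio was -1.35 for the members and 0.01 for all genes, and the sum of the 41 genes was 2.34-fold lower (2.31 to 2.37). Bysl was 5.86-fold lower (4.75 to 7.28), Rrp12 4.90-fold (3.74 to 6.49), Nop56 4.21-fold (3.95 to 4.49) and Rrs1 4.04-fold lower (3.59 to 4.54). Fbl, Nop10, Pes1 and Utp3 were 1.23-fold to 1.498-fold lower, below the threshold. Npm1, which was below it between WT IL-33 and WT vehicle, was 1.71-fold lower (1.65 to 1.76).

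Between cKO IL-33 and WT vehicle the members differed little. Myc was the 1 member at least 1.5-fold higher in cKO IL-33, with a ratio of 1.68 (1.45 to 1.95), and 0 were at least 1.5-fold lower. Of all genes, 2.4% were called higher and 1.03% lower. The median log2 ratio was 0.11 for the members and 0.06 for all genes. The members' intervals were above 1 for 15 genes and below 1 for 4 genes, Ncl, Npm1, Nhp2 and Ltv1, which is 37.5% and 10% of the 40 members. Over all 8385 genes these shares were 31.1% and 16.03%. Ncl was 0.848 times its WT vehicle level (0.821 to 0.877) and Npm1 0.814 times (0.789 to 0.840). Wdr12 had a ratio of 1.31 (1.19 to 1.45) and Nop58 of 1.26 (1.14 to 1.38). The sum of the 41 genes had a ratio of 0.985 (0.971 to 0.999), and without Ncl and Npm1 it was 1.10 (1.08 to 1.12). The 3 comparisons share libraries, so their ratios are not independent of one another. The cKO IL-33 cells were nearly all called female and the WT vehicle cells nearly all male.

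**Figure D2:**
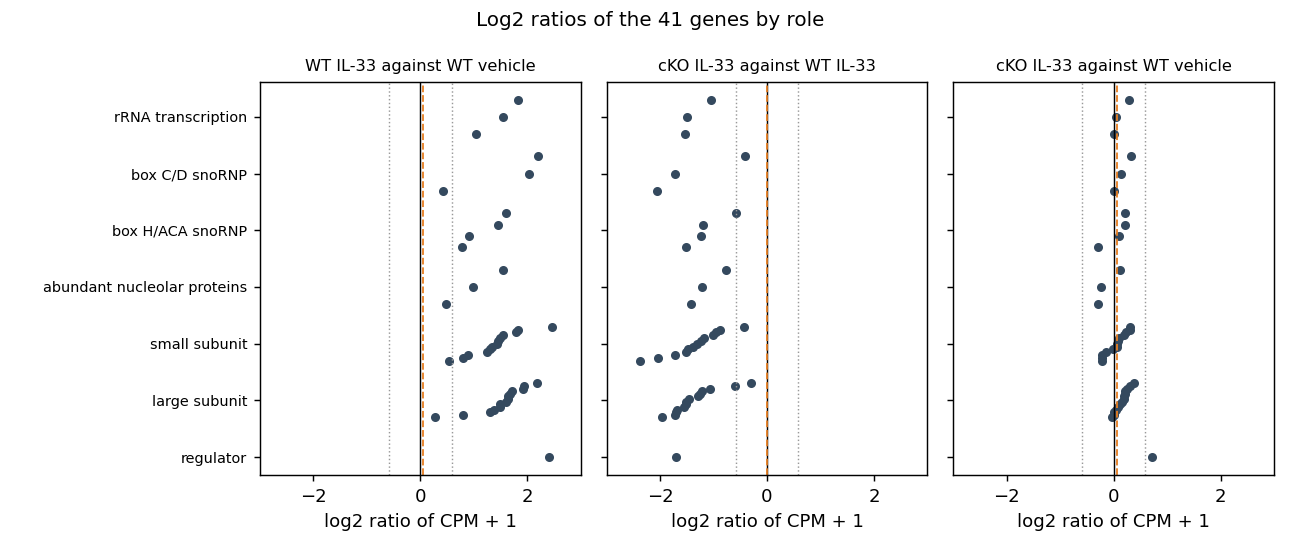
Log2 ratios of CPM + 1 of the 41 genes by role in each comparison, with 1.5-fold as dotted lines and the median of all genes with a mean of at least 10 CPM as an orange dashed line. WT IL-33 lies above WT vehicle for each gene (left), cKO IL-33 below WT IL-33 for each gene (middle), and cKO IL-33 and WT vehicle differ by less than 1.5-fold in each gene but Myc (right).

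WT IL-33 held cells of both sex calls, which allowed the members to be compared within that library. The ratio of female-called to male-called cells ranged from 0.740 to 1.04 over the 40 members, with a median of 0.844, and 0 were past 1.5-fold in either direction. In male-called cells alone, the sum of the members was 2.57-fold higher in WT IL-33 than in WT vehicle (2.53 to 2.61). In female-called cells alone, it was 2.16-fold lower in cKO IL-33 than in WT IL-33 (2.13 to 2.19). In the male-called cells, 37 of 40 members were past 1.5-fold higher in the former comparison, against 22.6% of all genes. For the latter, members were counted in female-called cells without Y-linked UMIs. There, 35 of 40 were past 1.5-fold lower, against 17.1% of all genes.

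The deposited table assigned cells to 6 numbered clusters without names, and their shares differed between libraries. Cluster 1 held 1815 of 2202 WT IL-33 cells, but 35 cells of cKO IL-33 and 20 of WT vehicle. Members were highest there, at a sum of 5372 CPM (5328 to 5417). The sources used here do not say whether these genes took part in the clustering, so values within clusters are a description. With cluster 1 left out of every library, which was decided once the data had been seen, 29 of 40 members still exceeded WT vehicle by at least 1.5-fold in WT IL-33, against 17.4% of all genes. The median log2 ratio was then 0.92 for the members and 0.10 for all genes.

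The other clusters with at least 50 cells in WT IL-33 differed in how far the members stood above WT vehicle. In cluster 0, with 144 and 1327 cells, the sum was 3105 CPM in WT IL-33 and 2149 CPM in WT vehicle, a ratio of 1.44 (1.37 to 1.52). There, 27 of 40 members were at least 1.5-fold higher, against 18.7% of all genes, and 1 (Rrp9, at few UMIs) was lower, against 9.92%. Some higher calls also rested on few WT IL-33 UMIs, such as those of Polr1b (6) and Bysl (9). Cluster 2 (102 and 515 cells) was at 2506 and 2181 CPM, a ratio of 1.15 (1.08 to 1.22), with 12 members higher against 16.8% of all genes, and Bop1 lower on 1 UMI in WT IL-33, against 9.98%. Cluster 3 (67 and 512 cells) was at 4524 and 2257 CPM, a ratio of 2.004 (1.89 to 2.13), with 32 members higher against 24.3%. Cluster 5 (59 and 88 cells) was at 4443 and 2261 CPM, a ratio of 1.96 (1.83 to 2.11), with 33 members higher against 23.6%. The intervals of clusters 3 and 5 lay above that of cluster 0, and that of cluster 0 above that of cluster 2. They cover counting error of pooled UMIs and leave out the spread between cells, so this order is a description. For WT IL-33 against WT vehicle, 25 of the 40 members had an interval above 1 in cluster 0, 7 in cluster 2, 24 in cluster 3 and 21 in cluster 5. Such shares over all genes were not computed within clusters. In cKO IL-33 the sums of these 4 clusters were 2135 to 2233 CPM.

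Nop56 and Myc were also compared as single genes across these clusters. Nop56 was 2.36-fold higher in WT IL-33 than in WT vehicle in cluster 0 (1.81 to 3.04), 1.62-fold in cluster 2 (1.17 to 2.21), 3.73-fold in cluster 3 (2.77 to 4.97) and 3.83-fold in cluster 5 (2.59 to 5.74). Myc was 4.67-fold higher in cluster 0 (3.15 to 6.78), 1.97-fold in cluster 2 (1.06 to 3.45), 3.71-fold in cluster 3 (1.94 to 6.69) and 2.04-fold in cluster 5 (0.979 to 4.25). Myc thus had its largest ratio in cluster 0, where the sum of the members had a smaller ratio than in clusters 3 and 5, but the intervals of Myc in clusters 0, 3 and 5 overlapped. Cluster 4, in which the cell cycle genes summed to 5704 CPM in WT vehicle, had 15 WT IL-33 cells and was described only in the other libraries (122 and 247 cells). The sum of the ribosome assembly genes there was 2549 CPM in WT vehicle (2482 to 2617), against 2149 to 2261 CPM in its clusters 0, 2, 3 and 5, and 2527 CPM in cKO IL-33 (2427 to 2630), against 2135 to 2233 CPM.

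In single cells thinned to 3000 UMIs, which left out 353, 86 and 77 cells, the 41 genes had a median of 50 UMIs per 10000 in WT IL-33 (quartiles 33.3 and 66.7), 20 for cKO IL-33 (13.3 and 26.7) and 20 for WT vehicle (16.7 and 26.7). The unthinned medians were 48.9, 21.3 and 21.4. The 95th percentile of WT vehicle cells was 40. It was exceeded by 1149 of 1849 WT IL-33 cells (62.1%, 59.9 to 64.4%), against 69 of 2601 in cKO IL-33 (2.65%, 2.07 to 3.35%) and 101 of 2632 in WT vehicle (3.84%, 3.14 to 4.64%). In WT IL-33 the share was 68.0% in cluster 1, 50.9% in cluster 3, 48.2% in cluster 5, 19.6% in cluster 0 and 5.80% in cluster 2. The higher sum in WT IL-33 was therefore spread over most of its cells and not held by a few.

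**Figure D3:**
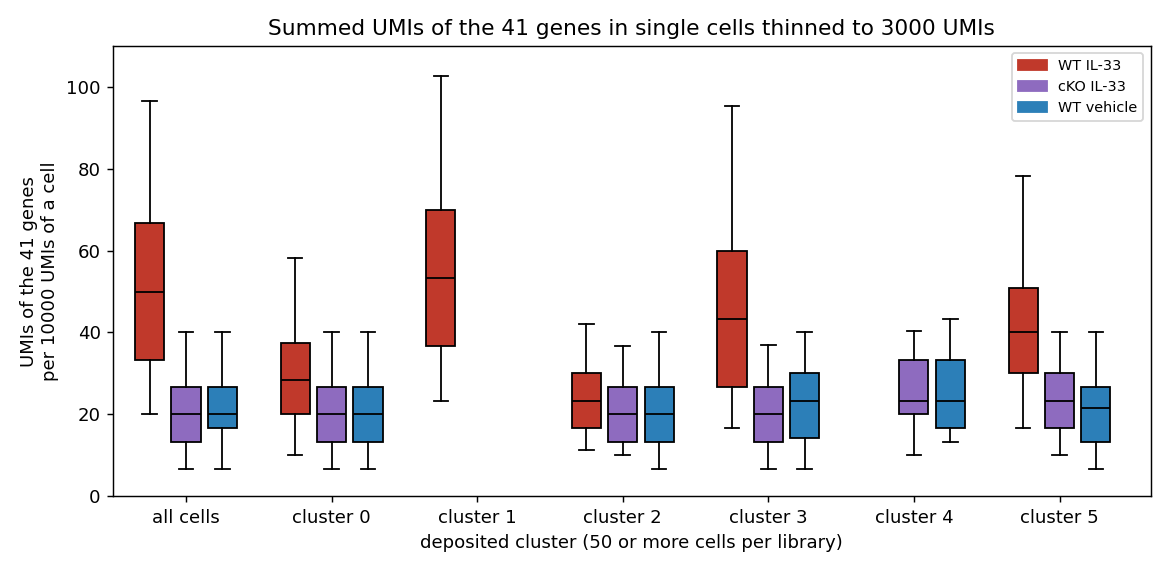
UMIs of the 41 genes per 10000 UMIs in single cells thinned to 3000 UMIs, by deposited cluster and library, for clusters with at least 50 thinned cells in that library (boxes: quartiles and median; whiskers: 5th and 95th percentiles). WT IL-33 medians run from 40 to 53.3 in all cells and in clusters 1, 3 and 5, and are 28.3 in cluster 0 and 23.3 in cluster 2. The WT IL-33 box overlaps those of the other libraries in clusters 0 and 2 and that of WT vehicle in cluster 3. In cluster 5 it meets that of cKO IL-33 at 30.

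The sum of the members was also compared among cells with the same deposited cell-cycle call. The call was G1 for 1308, S for 614 and G2M for 280 cells of WT IL-33. For WT vehicle these numbers were 1512, 799 and 398. WT IL-33 was 2.38-fold above WT vehicle in G1 cells (2.34 to 2.42), 2.22-fold in S cells (2.17 to 2.27) and 2.22-fold in G2M cells (2.14 to 2.29). The 17 cell cycle genes summed to 188 CPM in WT IL-33, against 492 (cKO IL-33) and 881 (WT vehicle), 4.70-fold lower in WT IL-33 than in WT vehicle (4.50 to 4.91). Of the 11 with a mean of at least 10 CPM, 9 were at least 1.5-fold lower, against 19.1% of all genes. The 9 included the histone gene Hist1h1b (5.36 against 140 CPM) and the mitotic gene Cenpf (3.05 against 57.7 CPM). Ribosome assembly genes were thus higher in the library whose cell cycle genes were lower. S and G2M calls were nevertheless common in that library. Whether a call marks the same state in each library was not tested, so cells with the same call may differ in cycling.

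Genes of the finished ribosome did not share the direction of the assembly factors. Cytosolic ribosomal protein genes (Rpl and Rps) together made 98337 CPM in WT IL-33, against 120985 (cKO IL-33) and 140151 (WT vehicle), 1.43-fold lower in WT IL-33 than in WT vehicle (1.42 to 1.43). Within clusters 0, 2, 3 and 5 the ratio of WT IL-33 to WT vehicle was 0.744, 0.725, 0.711 and 0.672. In cKO IL-33 the sum was 0.863 times that of WT vehicle. With CPM taken over totals without ribosomal protein and mitochondrially encoded genes, 36 of 40 members were higher in WT IL-33 than in WT vehicle, against 18.6% of all genes. The median log2 ratio on those totals was 1.40 for the members and -0.04 for all genes.

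Other genes of the pathway, taken from lists compiled by function, were higher to different extents. Over all genes, 21.8% were at least 1.5-fold higher and 19.1% at least 1.5-fold lower in WT IL-33 than in WT vehicle. Of 38 further small-subunit factors at the expression minimum, 33 had ratios of WT IL-33 to WT vehicle of at least 1.5 and 0 were lower by as much, with a median log2 ratio of 0.90. The highest were Pwp2 (1.75), Mphosph10 (1.73) and Wdr75 (1.60), and the lowest Ddx47 (0.15), Nol6 (0.28) and Ddx52 (0.38), all as log2 ratios. Of 47 further large-subunit factors, 38 were higher and 1 lower, with a median of 1.13. Ftsj3 (2.18), Sdad1 (2.15) and Nle1 (1.96) led them, and Nop53 (-0.74), Nsa2 (-0.21) and Las1l (0.10) were the lowest. Nop53, a 60S assembly factor also known as a nucleolar tumour suppressor, was the 1 lower gene, at 68.8 CPM in WT IL-33, against 101 (cKO IL-33) and 116 (WT vehicle). The 15 snoRNP assembly and exosome genes had 9 higher and 0 lower and a median of 0.74. Exosc1 (1.57), Dis3 (1.45) and Exosc2 (1.40) were the highest, and the exosome ring genes Exosc5 (-0.46), Exosc8 (-0.15) and Exosc9 (0.30) the lowest. Of the genes named in these lists, Pwp2, Nle1 and Exosc2 were below 10 CPM in cKO IL-33 and WT vehicle. They met the expression minimum only through WT IL-33, so their place among the highest is not independent of it.

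Of 11 further genes of RNA polymerase I and its factors, 5 were past 1.5-fold in that direction and 0 lower, with a median log2 ratio of 0.54. Rrn3, the initiation factor that recruits the polymerase to rRNA genes, was at 38.8 CPM in WT IL-33, against 19.9 (cKO IL-33) and 17.4 (WT vehicle). Its log2 ratio of 1.12 was the highest, followed by those of Taf1d (0.79), Cd3eap (0.72), Tcof1 (0.67) and Polr1a (0.61). Ubtf, the architectural factor of rRNA genes, was at 83.2, 95.2 and 95.02 CPM, a ratio of 0.876 (0.809 to 0.947). Taf1b (0.11) and Twistnb (0.19) were the next lowest.

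The Myc network, in which Mxd and Mnt proteins compete with Myc for Max, differed by member. Of 9 genes, 2 were higher and 5 lower in WT IL-33 than in WT vehicle, against 21.8% and 19.1% of all genes. The share of higher genes was thus close to that of all genes. The median log2 ratio of the 9 was -0.70. Mlx (0.94) and Mga (0.60) were the higher genes, and Max itself had a log2 ratio of 0.08. The lower genes were Mxd4 (-1.76), Mycl (-1.62), Mxi1 (-1.23), Mxd1 (-0.88) and Mnt (-0.70). Mxd4 was at 32.98 CPM in WT IL-33, against 129 (cKO IL-33) and 114 (WT vehicle). Mycl, a paralog of Myc, was at 8.66, 41.9 and 28.7 CPM. Myc was thus higher in WT IL-33, where Mxd4, Mycl, Mxi1, Mxd1 and Mnt were lower and Mga and Mlx were higher.

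Of 18 genes of growth-related metabolism and translation initiation, 12 were above WT vehicle by at least 1.5-fold in WT IL-33 and 0 below it. Of all genes, 21.8% were higher and 19.1% lower, and the median log2 ratio of the 18 was 0.87. Ctps, which makes CTP, was at 31.8 CPM in WT IL-33, against 5.95 (cKO IL-33) and 6.24 (WT vehicle), a ratio of 5.10 (4.13 to 6.34). It met the expression minimum only through WT IL-33. Eif4ebp1 (3.75-fold) and the spermidine synthase gene Srm (3.09-fold) followed. Paics, of purine synthesis, had a ratio of 0.799, and the nucleoside diphosphate kinase genes Nme2 and Nme1 had ratios of 0.998 and 1.13. Between cKO IL-33 and WT vehicle, the number of genes past 1.5-fold higher in these 6 lists was 1 among the large-subunit factors (Surf6), 1 in the Myc network (Mlxip, log2 ratio 0.72) and 0 in the others, and 0 were lower. In that comparison 9 of the 11 cell cycle genes were at least 1.5-fold lower in cKO IL-33 and 0 higher, with a median log2 ratio of -0.75. Of all genes, 2.4% were called higher and 1.03% lower in cKO IL-33 than in WT vehicle.

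**Figure D4:**
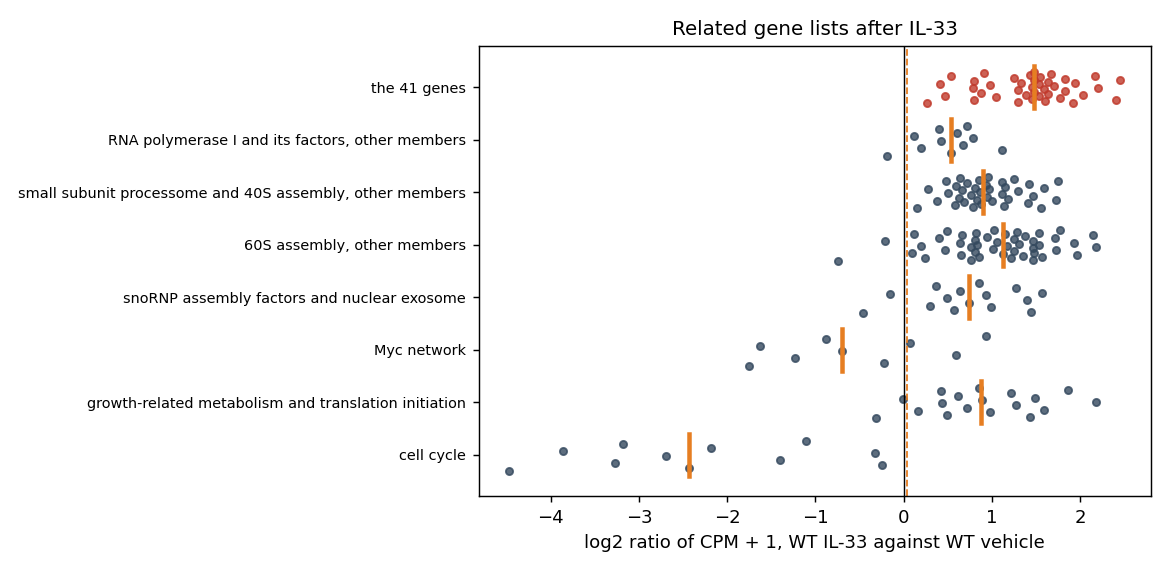
Log2 ratios of CPM + 1 in WT IL-33 against WT vehicle for the 41 genes and 7 related lists, 1 point per gene. Points are genes with a mean of at least 10 CPM, and also Rrp12, which was below it. Orange bars are medians over the genes at that minimum, and the dashed line is the median of all such genes (0.04). Medians run from 1.48 for the 41 genes without Rrp12 to -0.70 for the Myc network and -2.44 for the cell cycle genes.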

How the data were processed

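The deposited table holds UMI counts of 20586 genes in 7598 cells, and a deposited table of the cells gives the library, cluster, sex and phase calls and the percent of mitochondrial and ribosomal UMIs, per the file headers. CD45-positive cells were isolated on a 22% Percoll gradient, sorted and run on 10x Chromium version 3.1 chips, per the labels' protocols. Cell Ranger 5.0, Seurat 4.0.1, GRCm38 and mm10 are listed in the submitters' processing notes, with no roles. The sources used here do not state the filter that left these cells (2100 to 19987 UMIs each) or any removal of doublets, and no doublet caller was run. Pairs of libraries shared 0 or 1 barcodes.

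UMIs were summed per library, or per library and cluster, and scaled to CPM, with exact Poisson intervals. Ratios have exact conditional binomial (Clopper-Pearson) intervals and shares exact binomial ones, at 95%, for counting error only. Log2 ratios add 1 CPM. Genes with a mean of at least 10 CPM over the 3 libraries were counted past 1.5-fold. That mean includes WT IL-33, so a gene high only there can meet it. Clusters entered with at least 50 cells. The ratios and their intervals were tested on simulated Poisson sums. Python 3.11.15, numpy 2.4.6, scipy 1.17.1 and pandas 2.3.3 were used, with gene positions from GENCODE M21.

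The members and lists were chosen with earlier results of these data known. Values in each library are given for all members of role groups of up to 4 genes, and for the 5 members with the largest log2 ratio of WT IL-33 to WT vehicle in the small- and large-subunit groups. Of each wider list, the 3 highest and 3 lowest are given. Genes named beyond this rule (Bop1, Pes1, Wdr12, Utp3, Rrp9, Tcof1, Polr1a, Mxd1, Mnt, Mlxip and Surf6) were chosen after their values were seen. Of 41 further small-subunit names, 39 were in the table, and the mast cell marker Mcpt4 was not. Alternatives were another expression minimum, fold, pseudocount, library total and weight of cells, and subsets of cells by phase, cluster, depth, sex call and mixed-sex UMIs. Leaving out cluster 1 and thinning to 3000 UMIs were chosen after seeing the data.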

Additional observations from a re-analysis of the deposited data

How the results depend on the processing

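In WT IL-33 against WT vehicle, the members at least 1.5-fold higher numbered 36 of 40, and 12 of 16 with a mean of at least 50 CPM, against 18.5% of the 3573 genes at that level. Both minimums are means that include WT IL-33. The members' median log2 ratio of 1.48 became 1.15 with 10 CPM added and 0.92 without cluster 1. In cKO IL-33 against WT IL-33, 36 of 40 were lower, and 13 of 16 at 50 CPM, against 16.3%. The median of -1.35 became -1.09 with 10 CPM added, -1.23 in female-called cells without Y-linked UMIs and -0.79 without cluster 1. In cKO IL-33 against WT vehicle the count of 1 higher member was 0 at 50 CPM, 0 at 2-fold and 2 in cells with at most 5000 UMIs. Of all genes, 2.4% were higher in the main setting, 1.57% at 50 CPM, 0.596% at 2-fold and 4.01% in those cells. No comparison changed direction under the alternatives run. Single-sex values could not be had for cKO IL-33 against WT vehicle, where each library was nearly all of 1 sex call. With 1 library per group none could be left out. No paired analysis was possible because each group had 1 library. Depth limits the clusters: members such as Rrp9, Bop1, Polr1b and Bysl had few UMIs in the WT IL-33 cells of clusters 0 and 2. This holds for higher and lower calls alike.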
